A study of Homo sapiens with 16 samples.

Results

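Lung fibroblasts of the human line IMR90, a strain of normal diploid cells, were compared in 2 oxygen states while Raf was active. The tested libraries were the 4 labelled as hypoxia with Raf activated, and the libraries they were set against were the 4 labelled as normoxia with Raf activated, so that 8 of the 16 ATAC-seq libraries of the series were used. The members are samples and were chosen by these labels alone. Per the labels' protocols, the cells carried a retrovirus for ΔB-RAF:ER, a Raf kinase domain fused to the oestrogen receptor, and received 4-hydroxy-tamoxifen, the ligand that switches such a fusion on. Hypoxia was 0.5% O2 in an anaerobic incubator. Its length, and the length of the tamoxifen treatment, are not given in the sources used here. Both groups share the virus, the ligand and the line, and IMR90 is 1 line from 1 source, so replicates differ only as samples of it. The labels do not say whether replicates were grown separately. A p-value here therefore reflects how far these libraries scatter, and that scatter may be technical. The remaining 8 libraries, 4 in hypoxia and 4 in normoxia, are labelled Raf-inactivated (whether they received 4-hydroxy-tamoxifen is not given in the sources used here) and serve only to ask whether the same oxygen change differed without Raf.

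As background, ATAC-seq maps open chromatin by the places where the Tn5 transposase can cut, and a peak is a stretch where cuts pile up. Strong Raf signalling drives normal fibroblasts into oncogene-induced senescence, a lasting arrest held in part by p16, with secretion of cytokines and proteases and with rearranged heterochromatin. In low oxygen the prolyl hydroxylases of the EGLN family no longer mark HIF alpha subunits for destruction, HIF binds RCGTG motifs, and genes for glycolysis, angiogenesis and oxygen sensing are switched on. Histone lysine demethylases of the JmjC type also need oxygen, and the title of the series concerns methylated histones, histone clipping and heterochromatin in hypoxia.

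The 8 libraries overlapped in depth, with a higher mean in hypoxia. Distinct peaks on chromosomes 1 to 22 and X numbered 197591 to 206757 in hypoxia and 190378 to 204638 in normoxia. The background read pileup recovered from the peak lists was 6.53 to 8.34 in hypoxia and 6.09 to 7.10 in normoxia, ranges that overlap. Its mean was 7.315 in hypoxia and 6.745 in normoxia. The bases shared by 2 peak lists made up 0.783 of their union on average within hypoxia (6 pairs), 0.764 within normoxia (6 pairs) and 0.641 between them (16 pairs). A peak is a call past the authors' threshold, so a missing peak does not show closed chromatin. Of the 19 fibroblast markers listed, 10 had a start in the reference, and 9 of these (among them COL6A2, PDGFRA, PDGFRB, FN1 and VIM) had a peak within 1 kb of it in all 8 libraries, while TBX4 had none in any. Starts of other lineages were open as well: 5 of 8 epithelial, 6 of 10 endothelial, 4 of 10 blood and 6 of 9 neuronal markers, while PTPRC, GATA1, ITGAM, LCP1 and NKG7 of the blood list, DCX, ELAVL4 and MAP2 of the neuronal list and EMCN of the endothelial list had no start peak in any of the 8. Summed over a list and scaled to equal totals over the 8 libraries, blood markers held 98.4 to 106.8 peaks in hypoxia and 89.0 to 97.3 in normoxia, without overlap. The groups overlapped for fibroblast markers (185.4 to 197.6 in hypoxia and 181.9 to 208.1 in normoxia), epithelial markers (107.8 to 117.1 and 104.6 to 111.7), endothelial markers (199.9 to 205.8 and 189.7 to 203.8) and neuronal markers (171.8 to 180.8 and 172.9 to 187.8). Their part in the results was not tested. For the senescent label, the IL1B locus held 6.52 ± 0.12 scaled peaks in hypoxia and 9.24 ± 0.44 in normoxia with Raf active, against 3.64 ± 1.0 and 3.51 ± 0.54 with Raf inactive (SD, n = 4 each). At LMNB1, whose lamin B1 is lost in senescence, the order was the other way. It held 5.13 ± 0.61 and 6.11 ± 1.1 scaled peaks with Raf active, against 13.5 ± 0.87 and 12.4 ± 1.9 with Raf inactive, hypoxia first in each pair. Other secretory and arrest loci named below were divided. Both Raf-active means were above both Raf-inactive means at CDKN2A, CDKN2B, IL1A, IL6 and AREG. This was not so at CXCL8, MMP1, MMP3, FGF7, TNFRSF11B, GLB1 or RBL1. In normoxia GLB1 held 7.43 ± 0.41 with Raf active and 14.3 ± 1.8 with Raf inactive. Senescence itself was not tested.

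Open chromatin in Raf-active cells was spread over more of the genome in hypoxia, with wider peaks, while the total number of peaks overlapped between the groups. Peaks covered 97.7, 96.8, 102.1 and 98.6 Mb in the 4 hypoxic libraries, against 91.5, 92.5, 85.5 and 91.3 Mb in the 4 normoxic ones. Every hypoxic library lay above every normoxic one, and the difference of 8.59 Mb had p = 0.0286 in an exact permutation test (two-sided, adjusted p = 0.0429 over 6 genome-wide measures). This is the smallest p that 4 against 4 can give. Peaks within 1 kb of a protein-coding start numbered 16365 to 16671 in hypoxia and 15534 to 15967 in normoxia, and peaks in gene-poor bins (defined below) 11901 to 12453 and 10268 to 11476, both without overlap. The number of all peaks averaged 201539 ± 3829 in hypoxia and 199560 ± 6372 in normoxia (SD, n = 4 each), with overlapping groups and an exact permutation p of 0.657. Libraries were also thinned to the lowest background of the 8, a setting chosen after seeing the data. The genome covered by peaks then differed by 8.39 Mb and the median peak width by 27.25 bp. This thinning dropped whole peaks and left the edges of kept peaks unchanged. Summits with −log10 p of 60 or more were not thinned. The thinning therefore cannot show how peak width depends on depth, which was not tested. Hypoxia library 3, with the highest background (8.34), covered the most, and normoxia library 3, with the lowest (6.09), the least. Hypoxia library 2, with a background of 6.53, covered more than normoxia library 4, with 7.10. The part of depth in covered length was not tested. Median peak width was 384, 385, 392 and 391 bp in hypoxia, against 366, 364, 360 and 358 bp in normoxia, again without overlap (exact permutation, adjusted p = 0.0429).

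Wide peaks were more frequent in hypoxia. Peaks over 1 kb made up 6.88, 7.34, 7.34 and 7.23% of each hypoxic library, against 5.18, 5.16, 4.78 and 4.64% of each normoxic library. Peaks with several summits were 22.2 to 23.6% of peaks in hypoxia and 16.9 to 18.8% in normoxia. Width rose at gene starts and away from them: the median width within 1 kb of a protein-coding start was 818 to 850 bp in hypoxia and 754 to 768 bp in normoxia, and elsewhere it was 370 to 378 bp and 348 to 354 bp. The share of peaks inside protein-coding genes fell, at 56.7 to 56.8% in hypoxia and 57.8 to 58.3% in normoxia. These 5 measures were added after the data had been seen. None of them overlapped between the groups, and each had an exact permutation adjusted p of 0.0286 over the 5.

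The place of peaks shifted from gene-rich to gene-poor chromatin. One-megabase bins with a peak were ranked by their number of protein-coding gene starts and then by the bases that lie in genes. The lowest 561 of 2805 were called gene-poor, and each of these held at most 1 gene start. They took 6.05, 6.02, 6.02 and 6.02% of peaks in hypoxia, against 5.13, 5.29, 5.49 and 5.61% in normoxia. All 4 hypoxic values exceeded the normoxic ones, which were themselves more scattered, with libraries 1 and 2 below libraries 3 and 4. The share within 5 Mb of chromosome ends was 11.2, 11.2, 11.3 and 11.2% in hypoxia, and 12.4, 12.1, 11.7 and 11.6% in normoxia. Both differences passed the exact permutation test (adjusted p = 0.0429 each). For comparison, the gene-poor share was 8.46 ± 0.051% and 7.88 ± 0.014% in the Raf-inactive hypoxia and normoxia libraries, and the share near ends was 8.10 ± 0.043% and 8.39 ± 0.018% (SD, n = 4 each). The share within 1 kb of a protein-coding start was 8.19 ± 0.18% in hypoxia and 7.88 ± 0.19% in normoxia and did not pass (exact permutation p = 0.0571, adjusted p = 0.0686). It passed at equal list length, and its sign turned when either end of a gene was counted, a difference of -0.22 percentage points.

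**Figure D1:**
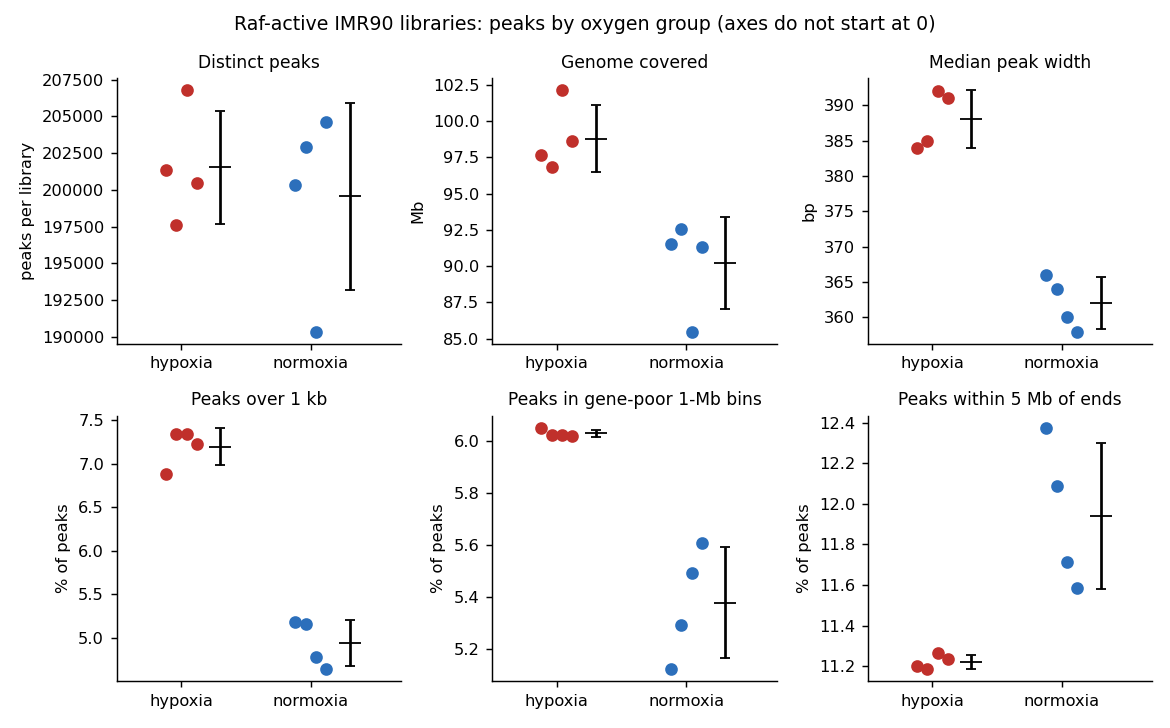
Measures of the peak lists in the Raf-active libraries, 1 point per library with hypoxia on the left of each panel and normoxia on the right, and the mean ± SD of 4 libraries beside them. The groups overlap for the number of peaks and do not overlap for covered length (96.8 to 102.1 Mb against 85.5 to 92.5 Mb), width, peaks over 1 kb, gene-poor bins or chromosome ends.

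Chromosomes followed the same division in part. Of 23 chromosomes, 9 held a higher and 10 a lower share of peaks in hypoxia (exact permutation, adjusted p = 0.0346 each over 23), which makes 82.6% of chromosomes called, since a share gained by some must be lost by others. Chromosome X held 2.51 ± 0.018% of peaks in hypoxia and 2.13 ± 0.040% in normoxia (SD, n = 4 each). It is not among the chromosomes poorest in genes, with 5.86 gene starts per megabase. Chromosome 2, with 5.44, was lower in hypoxia. Chromosomes 18, 4 and 13, all poor in genes, rose by 8.84, 8.62 and 6.82% of their normoxic share. At the other end, gene-rich chromosome 19 held 3.13 ± 0.013% in hypoxia and 3.53 ± 0.076% in normoxia, and chromosome 17 held 4.47 ± 0.018% and 4.87 ± 0.075%. Chromosomes 22 and 16 were lower as well. Chromosomes 5, 11, 20 and 21 did not pass the test, although 11 and 20 have 10.2 and 8.51 gene starts per megabase. Across the 23 chromosomes, which share libraries and depth, the change and the number of gene starts per megabase had a Spearman correlation of -0.75 and a Pearson correlation of -0.71, given as a description.

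**Figure D2:**
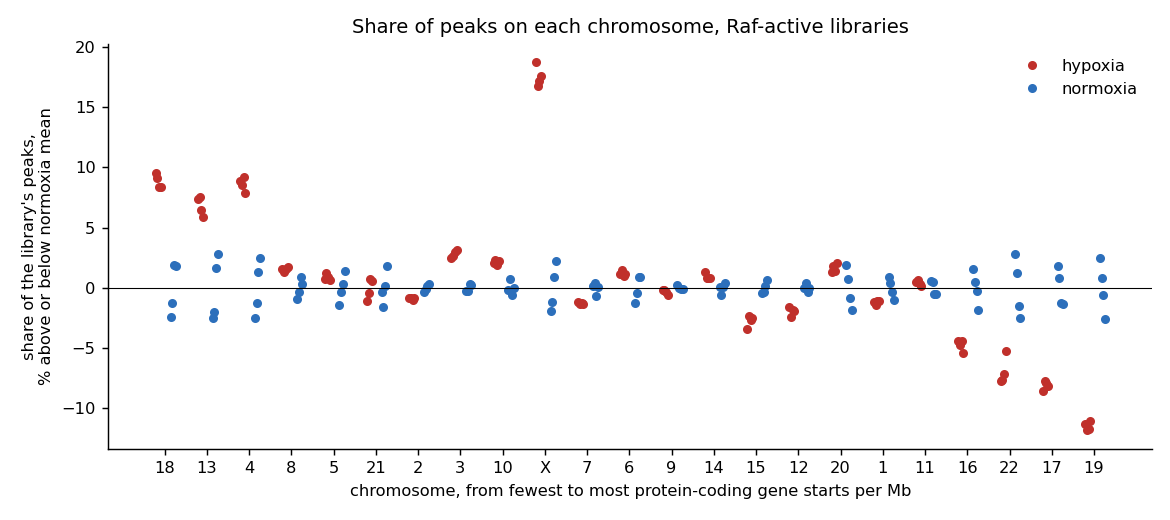
The share of each library's peaks on every chromosome, as percent above or below the mean of the 4 normoxic Raf-active libraries, with chromosomes ordered from few to many protein-coding gene starts per megabase. Hypoxic points (red, left) lie above the normoxic points (blue, right) on chromosomes X, 18, 4 and 13 and below them on 16, 17, 19 and 22.

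At the scale of single bins, 930 of the 2439 one-megabase bins tested held more peaks in hypoxia (38.1%) and 580 held fewer (23.8%; limma with Benjamini-Hochberg adjustment, adjusted p under 0.05). Among the 305 gene-poor bins tested, 177 were higher (58.0%) and 36 lower (11.8%), beside 35.3% higher and 25.5% lower among the other 2134. The largest rise was on chromosome X, at chrX:131000001-132000000, the bin that holds the starts of ARHGAP36, IGSF1 and OR13H1. It held 25.2, 25.6, 24.5 and 27.1 scaled peaks in hypoxia, against 7.495, 5.55, 5.92 and 10.1 in normoxia, a log2 change of 1.72 ± 0.11 (SE, limma adjusted p = 6.17e-09). With Raf inactive the same bin held 30.2 ± 1.4 scaled peaks in hypoxia and 26.3 ± 0.80 in normoxia. At chr6:97000001-98000000, with MMS22L, the values were 11.2 ± 0.77 in hypoxia and 3.07 ± 0.58 in normoxia with Raf active, and 37.5 ± 1.4 and 28.9 ± 3.8 with Raf inactive (SD, n = 4 each). The bin chr5:117000001-118000000 held 4.19 ± 0.49 and 0.707 ± 0.47 with Raf active, and 45.1 ± 0.84 and 38.2 ± 1.9 with Raf inactive. Thus the hypoxic Raf-active level was above the normoxic one in these 3 bins and below both Raf-inactive levels. Bins had to average 10 peaks over all 16 libraries. The last 2 bins reached this only through their Raf-inactive peaks, so the higher Raf-inactive level there is set by the filter. The largest fall was at chr4:79000001-80000000, with NAA11, GK2 and ANTXR2, where 9.07 ± 1.1 scaled peaks stood in hypoxia and 21.4 ± 1.1 in normoxia (log2 change -1.16 ± 0.10, limma adjusted p = 1.18e-07). It was followed by chr6:69000001-70000000, with COL19A1 (log2 change -0.90), and chr2:146000001-147000000, which holds no protein-coding start (log2 change -0.67).

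Peaks were then counted per locus, a protein-coding gene with 10 kb on each side, and scaled so that all libraries have the same total over loci. Of 15219 loci that averaged at least 3 peaks over all 16 libraries, 1992 were higher in hypoxia (13.1%) and 2162 lower (14.2%). These calls used limma on log2(scaled peaks + 1) with a Benjamini-Hochberg adjusted p under 0.05. Together 27.3% of loci were called, and the median log2 change over all loci was -0.015. The groups did not overlap at 1746 of the higher (11.5% of loci tested) and 1694 of the lower loci (11.1%). Without scaling 1696 loci were higher and 2775 lower, so that the higher share of calls was 37.9%, against 48.0% with scaling. Higher loci belonged to longer genes: the median gene spanned 87416 bases among them, 33693 among lower loci and 32132 among all. Among 4155 loci in the most gene-poor surroundings (1 to 7 gene starts per bin), 1001 were higher (24.1%) and 540 lower. Among 3787 in the most gene-rich ones (24 to 74 starts), 173 were higher (4.57%) and 604 lower (15.9%).

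**Figure D3:**
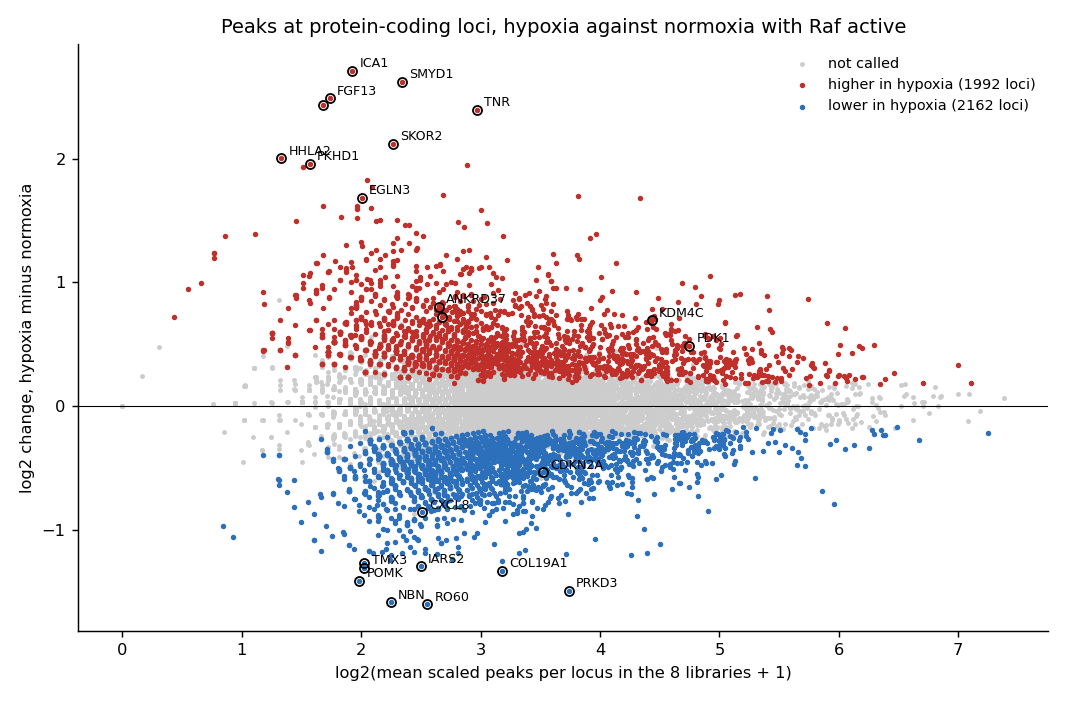
Log2 change in scaled peaks per locus, hypoxia minus normoxia with Raf active, against the mean level of the 8 libraries, 1 point per protein-coding locus. Red points are the 1992 loci that passed as higher in hypoxia and blue points the 2162 that passed as lower, with most of the loci of largest change named.

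The loci with the largest rises were nearly without peaks in normoxia. ICA1, which encodes an islet autoantigen, held 4.66, 5.69, 5.46 and 6.57 scaled peaks in hypoxia and none in the 4 normoxic libraries. On the log2(scaled peaks + 1) scale this was a rise of 2.71 ± 0.12 (SE, limma adjusted p = 4.3e-10). With Raf inactive, ICA1 held 8.14 ± 0.55 in hypoxia and 5.67 ± 1.4 in normoxia, so peaks were missing in the normoxic Raf-active libraries and present in the other 3 groups. DCHS2, a cadherin gene, had 4.66, 3.80, 4.55 and 4.69 scaled peaks in hypoxia and none in normoxia, with 6.46 ± 0.58 and 4.06 ± 1.4 in the Raf-inactive groups. FGF13 on chromosome X likewise had 4.66 ± 0.80 in hypoxia and none in normoxia, and 5.62 ± 0.97 and 2.43 ± 1.0 with Raf inactive. The same order was seen at HHLA2, an immune checkpoint ligand of the B7 family, with 3.02 ± 0.41 in hypoxia, none in normoxia, and 12.6 ± 1.7 and 10.3 ± 1.9 with Raf inactive. PKHD1, the gene of recessive polycystic kidney disease, had 3.72 ± 1.3 in hypoxia and 0.221 ± 0.44 in normoxia, where 3 of the 4 libraries had none.

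At 3 further loci the hypoxic Raf-active level was the highest of the 4 groups. TNR, which encodes the matrix glycoprotein tenascin-R, held 12.1, 9.49, 13.6 and 13.1 scaled peaks in hypoxia, against 0.891, 1.76, 0.949 and 2.65 in normoxia (log2 change 2.39 ± 0.21, limma adjusted p = 7.8e-07). With Raf inactive it held 5.33 ± 0.51 and 3.51 ± 1.4. SMYD1, a muscle lysine methyltransferase gene, held 9.32, 5.69, 9.10 and 6.57 in hypoxia, against 0, 0, 0.949 and 0.885 in normoxia, and 1.12 ± 0.014 and 2.96 ± 1.8 with Raf inactive. SKOR2, a neuronal corepressor gene, held 6.75 ± 0.83 in hypoxia and 0.885 ± 0.72 in normoxia, and 4.20 ± 0.52 and 3.78 ± 0.65 with Raf inactive (SD, n = 4 each). In the interaction test, all 8 of these loci differed from the oxygen change without Raf (limma adjusted p from 1.34e-06 to 0.00083). The loci were chosen by their Raf-active change, which is a part of the interaction, so this is no separate support.

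Loci with the largest falls kept some peaks. RO60, which encodes an RNA-binding protein and whose locus shares peaks with UCHL5, held 1.86, 1.90, 1.82 and 1.88 scaled peaks in hypoxia, against 6.24, 7.94, 6.64 and 10.6 in normoxia (log2 change -1.60 ± 0.23, limma adjusted p = 8.1e-05). With Raf inactive the level was 2.25 ± 0.94 in hypoxia and 2.98 ± 1.7 in normoxia. NBN, a subunit of the MRN complex that senses DNA breaks, held 0.932, 1.90, 1.82 and 0.938 in hypoxia, against 5.35, 6.18, 6.64 and 6.19 in normoxia. Its Raf-inactive levels were 5.90 ± 0.64 and 5.13 ± 1.0. PRKD3, a protein kinase D gene, held 6.52, 7.59, 6.37 and 3.75 in hypoxia, against 18.7, 22.1, 15.2 and 18.6 in normoxia, and 9.54 ± 1.5 and 8.37 ± 1.0 with Raf inactive. Thus at PRKD3 and RO60 the normoxic Raf-active libraries held the most peaks of the 4 groups, and at NBN the hypoxic Raf-active libraries held the fewest. POMK, COL19A1, TMX3, IARS2 and CRNKL1 completed the 8 largest falls, with log2 changes of -1.41, -1.33, -1.31, -1.30 and -1.27 and groups that did not overlap. The interaction passed at all 8 (limma adjusted p from 4.46e-05 to 0.0091). As with the rises, it holds the change by which the loci were chosen and is no separate support. CRNKL1 lost its call with loci widened to 50 kb (log2 change -0.10).

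The clearest response of a known hypoxia gene was at EGLN3, which encodes the oxygen sensor PHD3 and is itself induced by HIF. The locus lies at chr14:33924227-33951074 (hg38). It held 4.66, 5.69, 4.55 and 5.63 scaled peaks in hypoxia, against 0.891, 0.882, 0.949 and 0.885 in normoxia, a log2 change of 1.68 ± 0.090 (SE, limma adjusted p = 8.2e-09). In each normoxic library this was the single peak at the gene start. Hypoxia added 4 regions with a peak in 4 of 4 hypoxic and 0 of 4 normoxic libraries. The first, chr14:33937964-33939097, and the second, chr14:33933974-33934408, are inside the gene body, about 11.98 and 16.7 kb into it from the start. The others, chr14:33922068-33922529 and chr14:33915096-33915518, lie 28.5 and 35.6 kb from the start, past the gene's other end. All 4 regions were open in 4 of 4 hypoxic Raf-inactive libraries. The regions at 11.98 and 35.6 kb were also open in 4 of 4 normoxic Raf-inactive libraries, and those at 16.7 and 28.5 kb in none. By peaks per locus the Raf-inactive levels were 7.01 ± 0.55 in hypoxia and 3.51 ± 0.54 in normoxia, and the oxygen change was larger with Raf active by 0.85 on the log2 scale (limma interaction, adjusted p = 0.00038).

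**Figure D4:**
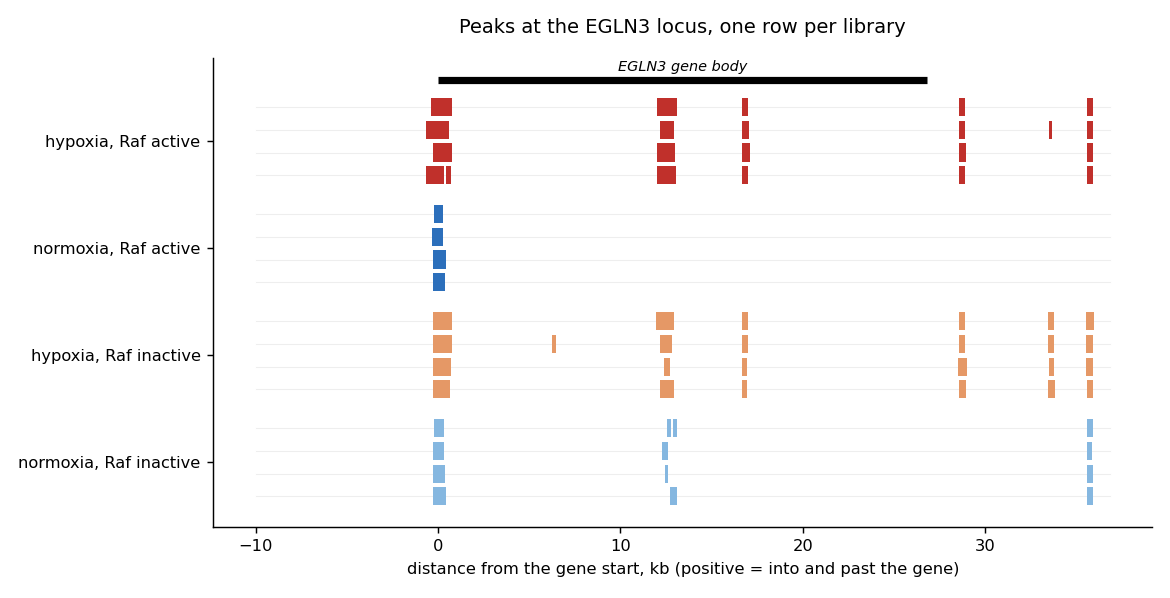
Peaks at the EGLN3 locus by distance from the gene start in kilobases, 1 row per library, with the gene body as a black bar. Both hypoxic groups have peaks at about 12, 17, 29 and 36 kb, the normoxic Raf-active libraries have the start peak alone, and the normoxic Raf-inactive libraries lack those at about 17 and 29 kb.

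The start peaks of HIF target genes widened at some genes and not at most. Peaks of all 8 libraries met in 129908 shared regions, of which 29836 (23%) were wider and 7648 (5.89%) narrower in hypoxia by limma on log2 of the bases covered, a test added after the data had been seen. At gene starts 3780 of 13069 shared regions were wider (28.9%) and 269 narrower (2.06%). Of 53 start regions of HIF target genes, 9 were wider and 2 narrower, a share of 17.0% wider that is below the share over all starts. CA9, the membrane carbonic anhydrase often used as a mark of hypoxia, had 739, 562, 736 and 605 bases open at its start in hypoxia, against 259, 266, 512 and 286 in normoxia (log2 change 1.05 ± 0.23, limma adjusted p = 0.0137). The start region of EGLN3 covered 1190, 1227, 1028 and 1297 bases in hypoxia, against 523, 608, 692 and 643 in normoxia. A start of MXI1, a MYC antagonist, covered 710 to 769 bases in hypoxia and 291 to 327 in normoxia. EPO, the erythropoietin gene, covered 763 to 825 bases in hypoxia and 298 to 659 in normoxia. Regions at STC2, PPFIA4, P4HA2, VLDLR and PLOD1 were wider by 0.46 or less on the log2 scale. The narrower ones were EGLN1, the sensor PHD2, with 1253 to 1384 bases in hypoxia and 1823 to 2003 in normoxia, and LDHA, lactate dehydrogenase A, with 475 to 563 and 750 to 785. Groups overlapped at none of the 4 wider genes given with values or the 2 narrower ones.

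Start sequences are shown for the oxygen sensor and the carbonic anhydrase named above, and for the starts with the best-ranked peaks among those that opened and those that closed, described below. Each is the strand of the gene, 5′ to 3′, from 250 bases before to 50 after the start, taken from RefSeq (GRCh38.p14). Capitals mark ACGTG or GCGTG, the HIF core motif, and TGANTCA, the AP-1 motif, on either strand.
EGLN3: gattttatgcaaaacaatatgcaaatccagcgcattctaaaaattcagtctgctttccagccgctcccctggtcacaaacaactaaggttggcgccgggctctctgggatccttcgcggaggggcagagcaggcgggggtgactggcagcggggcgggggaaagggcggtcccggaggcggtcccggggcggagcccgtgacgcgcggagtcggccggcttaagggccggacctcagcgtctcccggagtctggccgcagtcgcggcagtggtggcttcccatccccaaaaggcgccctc
CA9: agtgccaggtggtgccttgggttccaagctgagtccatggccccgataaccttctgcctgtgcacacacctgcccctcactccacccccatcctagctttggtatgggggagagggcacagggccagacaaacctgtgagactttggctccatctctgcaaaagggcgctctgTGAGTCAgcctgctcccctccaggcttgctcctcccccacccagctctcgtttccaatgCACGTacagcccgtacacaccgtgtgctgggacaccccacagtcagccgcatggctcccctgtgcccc
HK1: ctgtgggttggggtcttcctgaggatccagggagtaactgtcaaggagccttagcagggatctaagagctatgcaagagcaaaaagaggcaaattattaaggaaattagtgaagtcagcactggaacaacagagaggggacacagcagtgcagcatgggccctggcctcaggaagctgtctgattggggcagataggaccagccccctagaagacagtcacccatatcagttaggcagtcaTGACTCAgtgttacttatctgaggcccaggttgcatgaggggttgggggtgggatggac
TNIP3: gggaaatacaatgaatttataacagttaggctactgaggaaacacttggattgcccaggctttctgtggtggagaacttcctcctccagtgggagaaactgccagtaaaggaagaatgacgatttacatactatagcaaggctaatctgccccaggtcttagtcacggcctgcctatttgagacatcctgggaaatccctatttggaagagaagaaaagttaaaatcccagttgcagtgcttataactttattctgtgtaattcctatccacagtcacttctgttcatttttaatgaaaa

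These windows lie at chr14:33951025-33951324 (minus strand), chr9:35673678-35673977 (plus), chr10:69315519-69315818 (plus) and chr4:121164272-121164571 (minus), in the order given. At CA9 the HIF core motif lies upstream of the start, and peaks covered all 300 bases in the 4 hypoxic Raf-active libraries, against 225, 232, 300 and 245 bases in the normoxic ones. In the Raf-inactive libraries the same window was covered over 300 bases in each hypoxic and over 207 to 300 in each normoxic library. The EGLN3 start window holds neither motif in these letters and was covered over 292 to 300 bases in all 8. The HK1 window, a start of the hexokinase gene, holds 1 AP-1 motif. Peaks covered 209, 200, 209 and 210 of its bases in hypoxia and 0 in the 4 normoxic libraries. With Raf inactive they covered 199, 199, 0 and 0 bases in hypoxia and 0 in each normoxic library. The TNIP3 window, at a gene for an inhibitor of NF-κB signalling, was covered over 0 bases in all 4 hypoxic libraries and over 270, 296, 300 and 300 in normoxia, and over 219 to 300 in all 8 Raf-inactive libraries.

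Over 22132 start windows of 15812 genes, 177 windows of 165 genes were covered in 4 of 4 hypoxic and 0 of 4 normoxic libraries, and 45 windows of 42 genes in the reverse. These windows gained or lost coverage of their 300 bases, which does not show that a start opened or closed. Some lie in regions with a peak in all 8 libraries, where the covered stretch changed in extent. Examples are MXI1 and HLA-G among windows that gained coverage and KCNN3 among those that lost it. Ranked by the weakest of their 4 peaks and leaving out chromosome 8, the windows that gained coverage were led by HK1, RABGAP1L, MAP2K6 (a kinase upstream of p38), NUDT13, CTDSP1, AFAP1, GPX5 and FURIN. Those that lost coverage were led by TNIP3, a start of SYNE2, ELF3 (an epithelial transcription factor), VNN2, GAPDH, GPR132 and PPARGC1A, a coactivator of mitochondrial genes. The HIF core was present in 54.7% of all windows, 50.3% of those that gained coverage, 33.3% of those that lost it and 63.9% of those open in all 8 libraries. AP-1 motifs were in 6.15% of all windows, 9.60% of those that gained coverage and 11.1% of those that lost it, which is 17 and 5 windows. Median GC content was 58.3% in windows that gained coverage, 53.3% in those that lost it, and 62.3% in all.

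Widening and narrowing at other starts reached larger sizes. By a rule set after the values had been seen, the 6 largest changes each way without overlap were read. MAPK4, an atypical MAP kinase gene, covered 1474, 1261, 1443 and 1666 bases at its start in hypoxia, against 236, 457, 390 and 498 in normoxia (log2 change 1.93 ± 0.23, limma adjusted p = 0.00101). GALR1, GSTA3, HLA-G, ZNF705A and MAST4 followed with log2 changes of 1.86, 1.78, 1.77, 1.76 and 1.71. Reads at HLA-G and ZNF705A, which have close copies, may be placed with less certainty. KCNN3, a potassium channel gene, covered 310, 287, 290 and 290 bases in hypoxia, against 1010, 951, 980 and 978 in normoxia (log2 change -1.74 ± 0.038, limma adjusted p = 4.91e-06). RNF183, ADTRP, LRRC53, ATP6V1G1 and RIPOR2 followed with log2 changes of -1.30, -1.25, -1.23, -1.17 and -1.11.

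Among the hypoxia pathway lists, peaks per locus rose at 9 of 57 HIF target genes and fell at 4, with a median log2 change of 0.01 beside -0.015 for all loci. The higher members were EGLN3, ANKRD37, PGK1, KDM4C, AK4, VLDLR, PDK1, P4HA1 and PLOD2, and 22.8% of the list was called beside 27.3% of all loci. ANKRD37, a small ankyrin-repeat gene induced by HIF, held 6.52, 6.64, 8.19 and 6.57 scaled peaks in hypoxia, against 3.57, 3.53, 2.85 and 4.42 in normoxia (log2 change 0.80 ± 0.18, limma adjusted p = 0.0033). TMEM45A fell to 5.35 ± 0.80 in hypoxia, against 11.04 ± 0.90 in normoxia, and PLIN2, a lipid droplet coat gene, fell to 8.16 ± 0.49, against 11.04 ± 0.47 (SD, n = 4 each). PLIN2 did not pass by bases covered (-0.13) or with loci widened to 50 kb (-0.15). The fixed markers CA9, VEGFA and NDRG1 did not pass by peaks per locus, with log2 changes of -0.12 ± 0.10, -0.12 ± 0.12 and 0.25 ± 0.12 (limma adjusted p = 0.44, 0.50 and 0.12). NDRG1 depended on peak strength: counting peaks of at least 5-fold enrichment alone gave -1.18 (limma adjusted p = 7.37e-07).

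Of 24 glycolysis genes, 4 were higher (PGK1, PDK1, PGAM1 and ENO2) and 2 lower (LDHA and GAPDH), with a median of 0.00. This is 25% of the list called, beside 27.3% of all loci. PGK1, phosphoglycerate kinase, held 8.38, 6.64, 6.37 and 6.57 scaled peaks in hypoxia, against 3.57, 4.41, 3.79 and 3.54 in normoxia. PDK1, which keeps pyruvate out of the mitochondria, held 30.3 ± 1.5 and 21.4 ± 1.4 (log2 change 0.48 ± 0.073). Neither kept its call with peaks of 5-fold or more alone, where the log2 change was 0.15 at PGK1 and 0.028 at PDK1. LDHA and GAPDH fell by 0.28 each, and each lost its call when any of 6 of the 8 libraries was left out. Of 17 genes for HIF subunits and oxygen sensors, EGLN3 was higher and 5 were lower, with a median of -0.13. Of this list 35.3% was called. ARNT, the constant partner of HIF alpha, held 7.45, 7.59, 6.37 and 6.57 scaled peaks in hypoxia, against 12.5, 13.2, 13.3 and 11.5 in normoxia (log2 change -0.77 ± 0.090, limma adjusted p = 1.4e-05). With peaks of 5-fold or more alone, the change at ARNT was -0.079 and did not pass (limma adjusted p = 0.576). P4HTM, a transmembrane prolyl hydroxylase, had 4.66 ± 1.3 and 7.18 ± 1.1 with overlapping groups, and HIF1AN, RBX1 and ARNT2 were lower too. At the starts of these genes, by contrast, 8 of 17 shared regions were wider (47.1%, beside 28.9% of all starts) and 1 was narrower.

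**Figure D5:**
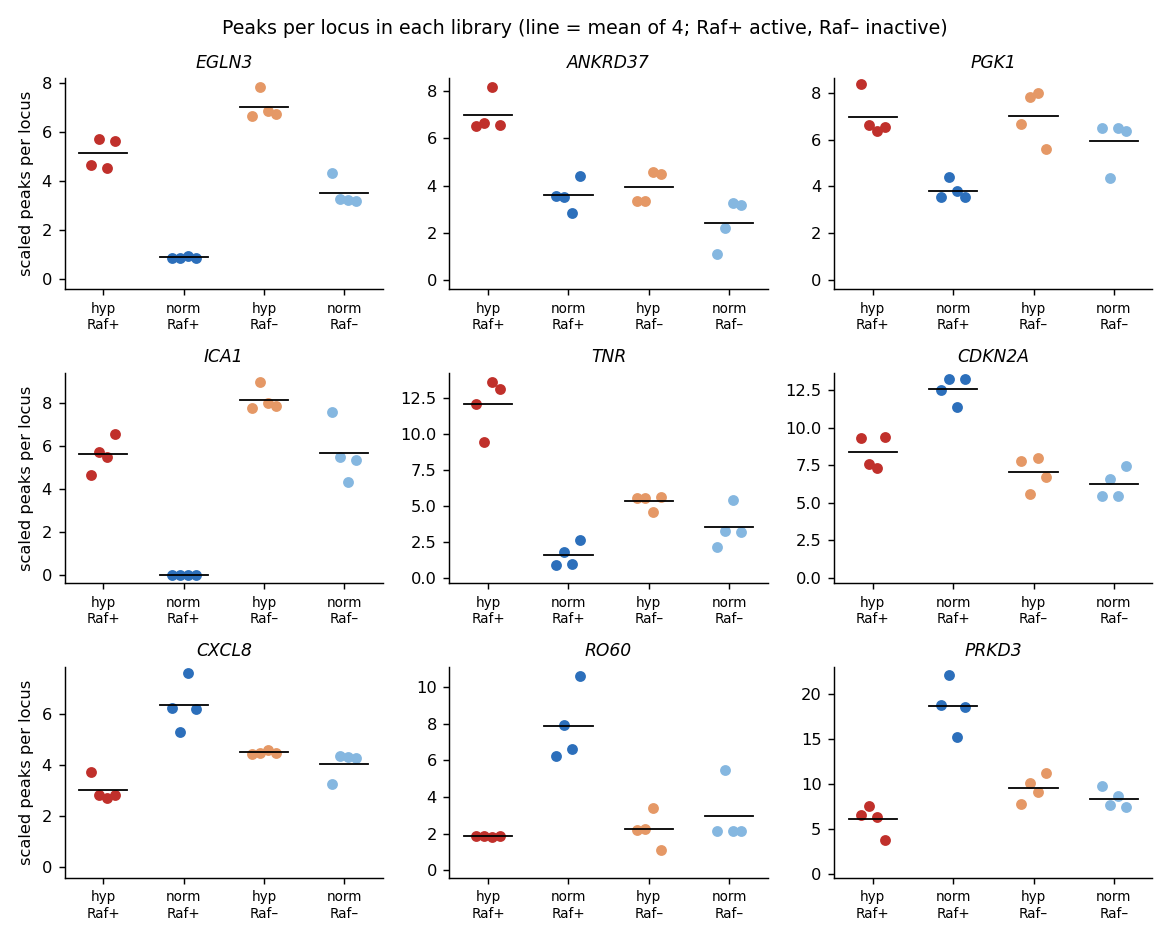
Scaled peaks per locus in every library at 9 named loci, with hypoxia left of normoxia for Raf-active and then Raf-inactive libraries and a line at the mean of 4. EGLN3, ANKRD37, PGK1, ICA1 and TNR are higher in hypoxia with Raf active, and CDKN2A, CXCL8, RO60 and PRKD3 are lower, all without overlap of the Raf-active groups.

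At genes of the secretory phenotype, more loci were lower than higher. Of 45 tested, 10 were lower in hypoxia and 3 higher, beside 14.2 and 13.1% of all loci, with a median log2 change of -0.10. The share of the list called, 28.9%, was near the 27.3% of all loci. By bases covered instead of peaks, 23 were lower and 5 higher, beside 21.4 and 19.3% of all loci. At their starts, 4 of 36 shared regions were wider (11.1%, below the 28.9% of all starts) and 4 narrower (2.06% of all starts). CXCL8, which encodes the neutrophil attractant interleukin-8, held 3.73, 2.85, 2.73 and 2.81 scaled peaks in hypoxia, against 6.24, 5.29, 7.59 and 6.19 in normoxia (log2 change -0.86 ± 0.10, limma adjusted p = 1.7e-05). Its Raf-inactive levels were 4.49 ± 0.055 and 4.05 ± 0.54, and the interaction passed (limma adjusted p = 0.00035). IL1B, an upstream cytokine of the phenotype, held 6.52, 6.64, 6.37 and 6.57 in hypoxia, against 8.91, 8.82, 9.49 and 9.73 in normoxia (limma adjusted p = 0.017), and did not pass with loci widened to 50 kb (-0.22). TNFRSF11B, a decoy receptor gene, fell by 0.54, and FGF2, CXCL3, PLAT, IL1R1, INHBA, EREG and MMP3 were lower too, MMP3 with no call left when any 1 of the 8 libraries was dropped. FGF7 and AREG, both growth factors, were higher by 0.57 and 0.38, as was IL15. FGF7 did not pass at equal list length (0.35) or with loci widened to 50 kb (0.18), and its change was -0.068 with peaks of 5-fold or more alone. IL1A, IL6 and MMP1 did not pass, with log2 changes of -0.08, -0.03 and -0.22.

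Of 37 arrest and senescence genes, 10 were lower and 4 higher, with a median of -0.17 and 37.8% called, beside 27.3% of all loci. At their starts, 8 of 35 shared regions were wider in hypoxia (22.9%, below the 28.9% of all starts) and 0 narrower. CDKN2A, which encodes p16 and ARF, held 9.32, 7.59, 7.28 and 9.38 scaled peaks in hypoxia, against 12.5, 13.2, 11.4 and 13.3 in normoxia (log2 change -0.54 ± 0.12, limma adjusted p = 0.0024). Its neighbour CDKN2B, the p15 gene, held 3.73, 2.85, 3.64 and 3.75, against 7.13, 6.18, 6.64 and 7.96 (log2 change -0.83 ± 0.10). Among the others, RBL2, HIRA, UBN1, E2F7, ZMAT3, SESN1 and BTG1 were lower. RBL1, a pocket protein gene, rose to 10.49 ± 1.2 in hypoxia, against 5.84 ± 1.5 in normoxia, and GLB1, the gene of senescence-associated beta-galactosidase, to 13.05 ± 1.7, against 7.43 ± 0.41. GATA4 and MACROH2A1 were also higher. Of 46 Raf-MAPK response genes, 9 were lower and 2 higher, with a median of -0.04 and 23.9% called, below the 27.3% of all loci. Of 49 start regions, 4 were wider and 6 narrower, beside 28.9 and 2.06% of all starts. SPRED1, a feedback inhibitor of Ras signalling, held 13.3 ± 0.52 in hypoxia and 21.2 ± 2.0 in normoxia, and SRF, the serum response factor gene, 4.89 ± 0.84 and 7.91 ± 1.5. SPRED1 did not pass with peaks of 5-fold or more alone (-0.24). TGFA rose to 10.0 ± 1.1, against 6.09 ± 0.54. ETV5 passed by a narrow margin (log2 change 0.28), losing the call without any of 6 of the 8 libraries, and DUSP6 did not pass (-0.07).

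The shares of chromatin regulators called were below the 27.3% of all loci, at 24% of Polycomb genes, 25% of histone lysine demethylases, 21.1% of H3K9 methyltransferase and HP1 genes and 2 of 19 histone proteases. At their starts, shared regions were wider in hypoxia at 9 of 30, 4 of 27, 6 of 18 and 4 of 10, in the same order, and narrower at 0. These wider shares were 30, 14.8, 33.3 and 40%, beside 28.9% of all starts. By peaks, none of the 25 Polycomb genes was higher and 6 were lower (PHC3, EED, AEBP2, EZH1, CBX6 and PHF19), with a median of -0.12. By bases covered, 4 were higher and 8 lower, beside 19.3 and 21.4% of all loci. PHC3, a subunit of the PRC1 complex, held 3.49 ± 0.46 scaled peaks in hypoxia and 5.87 ± 0.68 in normoxia, and EED, a core subunit of PRC2, 2.79 ± 0.72 and 4.51 ± 0.72 with overlapping groups. PHC3 lost its call by bases covered (-0.07, limma adjusted p = 0.621), with peaks of 5-fold or more alone (-0.25) and with loci widened to 50 kb (-0.21). EED lost it among peaks with −log10 q of at least 5 (-0.39), and its change was 0.032 at equal list length. Of 20 histone lysine demethylases, KDM4C was higher and KDM3B, KDM5B, KDM1A and KDM2A were lower. KDM4C, an H3K9 demethylase and HIF target, held 26.1, 24.7, 25.5 and 26.3 scaled peaks in hypoxia, against 14.3, 16.8, 14.2 and 16.8 in normoxia (log2 change 0.69 ± 0.071, limma adjusted p = 4.1e-06). Its Raf-inactive levels were 51.3 ± 1.7 and 52.9 ± 2.4. KDM3B fell by 0.67 and did not pass with peaks of 5-fold or more alone (-0.39). KDM5B fell by 0.51 with overlapping groups, did not pass at equal list length (-0.17), with −log10 q of at least 5 (-0.22) or by bases covered (-0.19), and had a change of 0.42 with peaks of 5-fold or more alone. Of 19 H3K9 methyltransferase and HP1 genes, MECOM was higher (27.5 ± 1.5 in hypoxia and 19.2 ± 1.8 in normoxia) and CBX5, SUV39H2 and CBX1 were lower. CBX5, the HP1 alpha gene, fell by 0.49 and lost its call without hypoxia library 3, and SUV39H2 fell by 0.37 and lost it without hypoxia library 1 or 3 or normoxia library 3. Among 19 cathepsins and other histone proteases, CTSD was higher and CSTB lower, and CTSL, the protease linked to histone H3 clipping, did not pass (0.04 ± 0.093).

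Of 64 histone genes, 10 were higher and 3 lower, with a median of 0.04 and 20.3% called, below the 27.3% of all loci. The higher ones sit close together, so neighbouring loci share peaks. H3C12 held 4.66, 4.75, 4.55 and 4.69 scaled peaks in hypoxia, against 2.67, 2.65, 3.79 and 2.65 in normoxia (log2 change 0.53), and H2AC17 rose by 0.45. H4C3 and H1-6 fell by 0.40 each on the same peaks, 1.16 ± 0.44 in hypoxia and 1.80 ± 0.063 in normoxia, with overlapping groups. By bases covered H3C12 (0.14), H2AC17 (0.058) and H1-6 (-0.19) did not pass. H2AC17 changed by -0.30 with peaks of 5-fold or more alone, and with loci widened to 50 kb H4C3 (0.0061) and H1-6 (0.035) changed sign. By bases covered 7 of the 64 were higher and 5 lower, shares below the 19.3 and 21.4% of all loci.

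The nuclear lamina and envelope list had 2 higher and 6 lower of 19, with a median of -0.20. Of the list 42.1% was called, beside 27.3% of all loci. LEMD3, an inner nuclear membrane protein gene, held 1.86, 1.90, 0.910 and 0.938 scaled peaks in hypoxia, against 4.46, 4.41, 3.79 and 4.42 in normoxia. TMPO, which encodes the lamina-associated LAP2 proteins, fell to 2.10 ± 0.48 in hypoxia, against 4.73 ± 0.40 in normoxia, and SUN2, TOR1A, LBR and TMEM43 were lower. SYNE1, a very long gene of a nesprin that links the nucleus to actin, rose to 34.3 ± 1.5 in hypoxia, against 22.6 ± 1.8 in normoxia. SYNE2 passed at 0.18 ± 0.064, a call that was lost without any 1 of the 8 libraries. LMNB1 did not pass (-0.21 ± 0.11, limma adjusted p = 0.19).

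Fibroblast matrix genes went both ways, with 8 of 46 higher and 5 lower, and 28.3% called beside 27.3% of all loci. COL11A1 rose to 2.57 ± 0.91 in hypoxia, against 0.902 ± 0.031 in normoxia, far below the Raf-inactive 11.2 ± 1.0 and 7.84 ± 2.1. EFEMP1, a fibulin gene, rose to 12.1 ± 0.97, against 8.57 ± 0.73 (0.22 and not passed with peaks of 5-fold or more alone), while LUM, the lumican gene, fell to 2.33 ± 0.52, against 4.73 ± 0.40, and TNC, tenascin-C, to 14.2 ± 1.5, against 21.6 ± 1.0. In the interferon response list 6 of 29 were higher (RSAD2, OAS3, ISG20, MX1, IFI27 and OAS2) and IFI35 lower, with 24.1% called. RSAD2, the antiviral gene for viperin, held 3.73, 5.69, 4.55 and 5.63 scaled peaks in hypoxia, against 2.67, 0.882, 1.90 and 2.65 in normoxia (log2 change 1.00 ± 0.16, limma adjusted p = 0.00025). OAS3 rose by 0.50 and lost its call without hypoxia library 2 or 4 or normoxia library 1, and IFI35 fell by 0.53, with a change of -0.013 with peaks of 5-fold or more alone.

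Of 29 HOX genes, 5 were higher (HOXD13, HOXA9, HOXC9, HOXA7 and HOXA6) and 2 lower (HOXB2 and HOXA4). This is 24.1% called, beside 27.3% of all loci. HOXD13 held 3.73, 4.75, 4.55 and 5.63 scaled peaks in hypoxia, against 0.891, 0.882, 0.949 and 2.65 in normoxia, and HOXA9 rose by 0.49. HOXA9 did not pass at equal list length (0.12), at matched background (0.31) or with loci widened to 50 kb (0.094). HOXB2 fell by 0.43, without a call when hypoxia library 4 or normoxia library 2 was dropped, and HOXA4 by 0.24, without one when any of 6 libraries was. None of the 27 NOTCH pathway genes was higher and 5 were lower, so that 18.5% were called, below the 27.3% of all loci. NOTCH1, a receptor of the pathway, held 10.9 ± 1.1 scaled peaks in hypoxia and 16.2 ± 0.41 in normoxia.

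On chromosome 19, 32 of 114 ZNF genes tested were lower and 6 higher, beside 14.2% lower and 13.1% higher over all loci, and their median was -0.17. ZNF8 held 1.86, 1.90, 2.73 and 1.88 scaled peaks in hypoxia, against 5.35, 5.29, 4.74 and 5.31 in normoxia, and ZNF20 3.03 ± 0.47 and 6.53 ± 0.45, while ZNF233 and ZNF599 rose by 0.80 each. The start regions of this list, 217 of 193 genes, cover more genes than the 114 tested by peaks. Of these regions, 94 were wider in hypoxia (43.3%, beside 28.9% of all starts) and 2 narrower. Other lists, by count of higher and lower loci, were chromatin architecture (4 and 6 of 35), cell cycle (3 and 6 of 41), TGF-beta pathway (6 and 8 of 36), angiogenesis (0 and 2 of 28), keratins (0 and 2 of 29), keratin-associated proteins (2 and 1 of 13), olfactory receptors (5 and 0 of 25) and clustered protocadherins (0 and 0 of 19). Markers gave 4 and 4 of 19 for fibroblasts, 2 and 0 of 14 for epithelium, 2 and 0 of 16 for endothelium, and 2 and 1 of 10 both for blood cells and for neurons.

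Single regions were last compared by presence. Peaks of all 16 libraries merged into 355447 regions, of which 299052 held peaks of at least 2 libraries. A peak was present in 4 of 4 hypoxic and 0 of 4 normoxic Raf-active libraries in 11042 regions (3.69%), called gained, and in the reverse in 9154 (3.06%), called lost. Gained regions were in gene-poor bins more often (9.26%, against 4.86% of lost, 5.56% of the 129908 shared and 7.35% of the 299052 regions). They were less often near chromosome ends (6.67%, against 12.01, 11.4 and 9.99% in the same order). They lay within 1 kb of a protein-coding start in 3.09% of cases, lost regions in 1.22%, shared regions in 10.1% and the 299052 regions in 5.58%. Chromosome X held 467 gained and 117 lost regions, and chromosome 19 held 137 and 392. With Raf inactive, 31.7% of gained and 9.39% of lost regions were open in 4 of 4 hypoxic libraries, and 26.2 and 11.6% in 4 of 4 normoxic ones. Over the 299052 regions these shares were 44.8% in hypoxic and 43.9% in normoxic libraries. Neither Raf-inactive group had a peak in 48.5% of gained, 71.7% of lost and 28.0% of the 299052 regions.

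The best-ranked gained region was chr10:49577195-49578132, between genes, 30963 bases from CHAT, with 19.3 to 20.6-fold enrichment as listed by the authors in the 4 hypoxic libraries and no peak in any Raf-inactive library. It was followed by chr10:93968405-93969040, 24891 bases outside PLCE1, by chr16:14461797-14462221 within PARN, a deadenylase gene, and by chr1:213211596-213212831 within RPS6KC1. The PARN region was also open in 4 of 4 hypoxic and 1 of 4 normoxic Raf-inactive libraries, and the RPS6KC1 region in 1 and 4. The best-ranked lost region was chr17:50806840-50807412, 27172 bases outside WFIKKN2, with 13.7 to 15.3-fold enrichment in the 4 normoxic libraries. The next were chr12:124764788-124765738, 11118 bases outside SCARB1, chr12:115671880-115672579, 285997 bases outside MED13L, and chr1:54798913-54799470 within TTC22. The SCARB1 region was open in all 8 Raf-inactive libraries and the MED13L region in none of them.

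The oxygen change in Raf-inactive cells is a comparison with no library in common. Its libraries were shallower and of unequal depth, with a background of 4.61 to 5.02 in hypoxia and 3.01 to 3.50 in normoxia, and the part of depth in the lists of Raf-inactive peaks and in their overlap was not tested. There, 921 loci were higher (6.05%) and 1031 lower (6.77%) in hypoxia. Loci higher in both numbered 206, which is 10.3% of the Raf-active and 22.4% of the Raf-inactive list, and loci lower in both numbered 202, or 9.34 and 19.6%. Loci that moved in opposite senses numbered 87 (higher with Raf active) and 96 (lower with Raf active). The interaction test called 2772 loci (18.2%), and 2571 when all 16 libraries were thinned to the lowest background. The 2772 loci with an interaction included 967 of the 1992 higher and 966 of the 2162 lower loci. By regions, 235 were gained in both states, 2.13% of the 11042 with Raf active and 5.25% of the 4474 with Raf inactive. Lost in both were 110, or 1.202% of 9154 and 2.31% of 4756.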

How the data were processed

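Peak lists of ATAC-seq in 16 libraries of IMR90 cells, 1 list per library from 50000 nuclei, were used as deposited. Per the submitters' processing notes, the authors used hg38, Bowtie2, SAMtools, Picard and MACS2, with versions not given in the sources used here. Each deposited line gives a peak's interval with a score, the fold enrichment at its summit, and −log10 of the p-value and of the q-value, all by the authors. Reads were not analysed here.

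Lines on chromosomes 1 to 22 and X were kept (0 to 4 lines per library fell elsewhere), and each interval listed more than once counted as 1 distinct peak, with its strongest summit. Depth was read from the lists: fold and −log10 p give the background pileup, whose most common value held 29.7 to 43.0% of summits under a −log10 p of 60. Genes came from RefSeq (GRCh38.p14), 19974 protein-coding, of which 15812 (79.2%) had a start. Shares and lengths were compared by exact permutation tests of 4 against 4 libraries. Loci and 1-Mb bins were fitted with limma 3.58.1 (R 4.3.3) on log2(scaled peaks + 1) with group means over 16 libraries, which share one spread, and Benjamini-Hochberg adjustment over all loci or bins. Loci needed a mean of 3 peaks and bins of 10, over all 16 libraries. Widths of shared regions were fitted with limma over the 8 Raf-active libraries. The scripts were tested on simulated data. Regions met by at least 1 bp of a peak counted as open. Precision was judged from the spread between replicates. Alternatives covered peak strength, list length, background, scaling, pseudocount, filters, window size, the replicate block and left-out libraries. Thinning to the lowest background of the 8 libraries, either gene end as a start, the peak shape measures, the width fit and the choice of start windows were added after seeing the data.

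Named loci were the 8 largest rises and 8 largest falls among called loci without overlap, the 2 largest each way of a gene list, and 16 genes of hypoxia and senescence; 2 of these loci are not reported here. The members and lists were chosen with earlier results of these data known.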

Additional observations from a re-analysis of the deposited data

Results flagged for a closer look

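The oxygen change with Raf active differed from the oxygen change with Raf inactive at 51 of the 82 loci named here, by the limma interaction term (adjusted p from 1.34e-06 to 0.0483). Over all loci tested the term passed at 18.2%, and at 48.5% of the higher and 44.7% of the lower loci. Most named loci were chosen by their Raf-active change, which is a part of this term, so the count says little about loci in general. The difference of the 2 log2 changes, Raf active minus Raf inactive, was positive at 20 of them and negative at 31. It was 3.41 at SMYD1, 2.24 at ICA1, 2.00 at SKOR2, 1.92 at PKHD1, 1.86 at TNR, 1.83 at DCHS2, 1.72 at HHLA2, 1.497 at FGF13, 1.21 at HOXD13, 1.09 at RBL1 and 0.90 at GLB1. Smaller positive differences were 0.85 at EGLN3, 0.74 at KDM4C, 0.66 at ZNF233, 0.59 at ETV5, 0.59 at PDK1, 0.55 at MECOM, 0.55 at SYNE1, 0.49 at H3C12 and 0.40 at H2AC17. The largest negative differences were -1.77 at NBN, -1.66 at PRKD3, -1.53 at COL19A1, -1.40 at TMX3, -1.34 at RO60, -1.26 at IARS2, -1.16 at P4HTM, -1.15 at ZNF8, -1.08 at POMK, -1.04 at ARNT, -0.99 at CXCL8, -0.95 at CRNKL1 and -0.84 at LUM. Others were -0.84 at ZNF20, -0.80 at KDM5B, -0.80 at TMEM45A, -0.78 at IFI35, -0.77 at CBX5, -0.76 at CDKN2B, -0.69 at CDKN2A, -0.69 at NOTCH1, -0.64 at SRF, -0.57 at PLIN2, -0.56 at HOXB2, -0.51 at H1-6, -0.51 at H4C3, -0.47 at SPRED1, -0.45 at HOXA4, -0.44 at GAPDH, -0.43 at TNC and -0.39 at HMGA2.

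In 42 of the 176 groups of 4 libraries looked at, 1 library stood apart from the other 3. Chance flags about 1 in 20, and at loci with few peaks a single peak more or less, or the scaling alone, is enough. The share of peaks within 1 kb of a start was 8.16% in normoxia library 3, the highest of its group. In hypoxia the scaled peaks that stood apart were 8.19 at ANKRD37, 2.85 at CDKN2B, 2.85 at COL19A1, 3.73 at CXCL8, 3.8 at DCHS2, 2.79 at DUSP6, 1.82 at H1-6, 1.82 at H4C3, 3.64 at HHLA2, 3.75 at HOXB2, 3.73 at IARS2, 4.55 at IL6, 6.37 at MMP1, 8.38 at PGK1, 2.81 at PHC3, 1.88 at POMK, 2.81 at TMPO, 2.85 at TMX3, 3.73 at ZNF20 and 2.73 at ZNF8. In normoxia they were 12.3 at CBX5, 0.949 at COL11A1, 4.74 at CTSL, 0.949 at EGLN3, 6.64 at GAPDH, 1.9 at H1-6, 4.74 at H2AC17, 3.79 at H3C12, 1.9 at H4C3, 2.65 at HOXD13, 6.64 at IARS2, 8.91 at IFI35, 11.5 at IL1A, 3.79 at LEMD3, 6.64 at MMP3, 0.882 at PKHD1, 6.64 at SUV39H2, 9.71 at TMEM45A, 1.9 at ZNF233, 1.9 at ZNF599 and 4.74 at ZNF8. At EGLN3, COL11A1, CTSL, SUV39H2, ZNF233, ZNF599, H1-6 and H4C3 the normoxic counts are equal in all 4 libraries before scaling, so the value that stood apart there comes from the scaling.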

How the results depend on the processing

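Over 18 summary results and 245 alternatives, 203 kept direction and side of the threshold (counts within 1.5 times), 32 fell below it, 1 rose past it, 7 moved and 2 reversed. The share of peaks within 1 kb of a protein-coding gene start differed by 0.373 percentage points at equal list length and by -0.22 when either gene end counted, the last setting chosen after seeing the data. Loci higher in hypoxia numbered 3314 with loci widened to 50 kb, loci lower in hypoxia 3252 by base pairs, and loci with an interaction 4801 by base pairs. At other thresholds, regions gained were 7210 and regions lost 5850 at 5-fold enrichment or more, and 24417 and 22200 when 3 of 4 against at most 1 of 4 sufficed. Leaving out 1 library in turn gave differences of -1082 to 3671 in distinct peaks per library, 7.01 to 9.36 Mb in the genome covered by peaks, 24.7 to 27.3 bp in median peak width, 0.254 to 0.408 points at starts, 0.563 to 0.724 in gene-poor 1-Mb bins and -0.837 to -0.574 near chromosome ends. The fall in peak number came without normoxia library 3. None of these can pass, since 3 against 4 libraries cannot go below an exact permutation p of 0.0571. Left-out counts were 1696 to 1834 loci higher, 1754 to 1893 lower, 2388 to 2546 with an interaction, 857 to 957 and 535 to 567 bins, 11865 to 13017 and 9933 to 11743 regions, and 21903 to 24788 wider and 5607 to 6633 narrower shared regions.

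Of 72 called named loci, 44 kept the call in every alternative run for them and 62 in every left-out fit. Directions turned at equal list length for CA9 (0.052), CTSL (-0.027), DUSP6 (0.032), EED (0.032) and IL6 (0.037). With loci widened to 50 kb they turned for DUSP6 (0.16), H1-6 (0.035), H4C3 (0.0061), HOXA4 (0.12), VEGFA (0.0035) and ZNF233 (-0.32). At 5-fold enrichment or more they turned for FGF7 (-0.068), H2AC17 (-0.30), HMGA2 (0.23), KDM5B (0.42), LDHA (0.18), MMP1 (0.054), NDRG1 (-1.18), NOTCH1 (0.11) and SYNE2 (-0.13), and by base pairs for VEGFA (0.021). IL6 ranged from -0.081 to 0.0099 over left-out libraries. The cause was not tested. Same-numbered libraries did not deviate together (correlations of -0.036 to 0.0013), and pairs with different numbers were near 0 as well (up to 0.026). With few peaks at many loci, this cannot exclude a shared culture or batch. With the replicate block, 1911 loci higher in hypoxia, 2046 loci lower in hypoxia and 2631 loci with an interaction were called. Chromosome shares were not refitted with libraries left out. Depth is known only through the background of the lists, and weak peaks are the most exposed to it.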
